A study of Mus musculus with 6 samples.

Results

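The MYC, MAX and MXD network was described in LSK cells of mouse bone marrow through 10 genes chosen by name: the MYC family genes Myc, Mycn and Mycl, the partner gene Max, the repressor genes Mxi1, Mxd1, Mxd4, Mnt and Mga, and the MAX-like gene Mlx. All 10 were found among the 23420 genes of the files, Mycl under its older symbol Mycl1, and all 10 passed the filter on low counts that left 12653 genes for testing. LSK cells carry Sca-1 and c-Kit but no markers of mature lineages, and contain the blood stem cells and multipotent progenitors. RNA was sequenced from 3 bcat(ex3)osb mice, whose osteoblasts carried constitutively active β-catenin signalling, and from 3 wild-type (WT) littermates, with 1 library per mouse. The LSK cells of the bcat(ex3)osb mice are thus not labelled as carrying the altered β-catenin themselves. The labels give no treatment, age, strain or Cre driver for either group.

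MYC proteins bind DNA only as pairs with MAX, through basic helix-loop-helix zipper domains that recognise the E-box, and as such pairs they raise transcription of genes for growth, ribosome production and metabolism. MXD proteins, MNT and MGA compete for MAX and for the same E-boxes and bring repressor complexes instead, and MLX is a MAX-like protein that pairs with the glucose-sensing MondoA and ChREBP proteins and with some MXD proteins. In mouse bone marrow, Myc is known for moving stem cells from quiescence in the niche towards division and differentiation, with Mycn as a partly interchangeable relative.

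The sequence that the network reads, the E-box CACGTG, also stands near the starts of some of its own genes. It was searched in the 250 bases before each start in the RefSeq promoter table on GRCm38.p6, and since it is a palindrome it reads alike on both strands. Of the 10 network genes, 9 had an entry, and 3 of these 9 held the motif (Mxd4, Mnt and Mlx), against 6.86% of 27025 genes. Among the listed genes that MYC is known to induce, 7 of the 24 with an entry held it (29.2%). Of these, Ldha was higher in bcat(ex3)osb mice without overlap. Nme1, Eif4e, Eif4a1, Hspd1, Cdk4 and Apex1 overlapped between the genotypes, with log2 fold changes from 0.015 (Hspd1) to 0.223 (Apex1). A link of the motif with these levels was not tested. The stretches around the motif are shown for the 3 network genes, for Ldha, a MYC-induced gene with higher counts in the bcat(ex3)osb mice, and for Arrdc4, a gene driven by MondoA and MLX. The E-box is in capitals, with up to 20 bases on either side, 5′ to 3′ on the strand of the gene.
Mxd4, chr5:34187904-34187949, minus strand: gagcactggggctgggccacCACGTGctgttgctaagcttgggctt
Mnt, chr11:74830781-74830826, plus strand: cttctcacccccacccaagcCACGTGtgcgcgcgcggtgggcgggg
Mlx, chr11:101087230-101087275, plus strand: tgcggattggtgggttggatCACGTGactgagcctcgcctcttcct
Ldha, chr7:46845639-46845684, plus strand: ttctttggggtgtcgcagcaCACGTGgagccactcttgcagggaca
Ldha, chr7:46845736-46845781, plus strand: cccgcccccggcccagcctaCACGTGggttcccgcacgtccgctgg
Arrdc4, chr7:68749406-68749451, minus strand: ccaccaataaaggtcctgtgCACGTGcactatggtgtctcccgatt
Counted to the transcript starts of that table, the motif of Mlx began 40 bases before the start, that of Mnt 123 bases and that of Mxd4 219 bases. A gene can have other starts: the whole span of Mlx, given with its values, begins upstream of the motif, and that of Mnt begins at the last base of the motif. These are matches of letters, and no binding was measured.

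Total counts lay between 15431235 and 19956774 per library. On the first principal component (50.8% of the variance) the library of bcat(ex3)osb mouse 2 stood apart. In this library and in that of WT mouse 2, long genes were low relative to short ones: the median deviation of genes of at least 4256 bases minus that of genes of at most 1782 bases was -0.86 and -0.50 log2 units in them and between 0.21 and 0.59 in the other 4. Y-linked counts were 3715 and 2841 in bcat(ex3)osb mice 1 and 2 and at most 13 in bcat(ex3)osb mouse 3 and the WT mice, so genotype and sex were not balanced. Of the genes by which the cells were sorted, Kit (c-Kit) was at 345 to 725 CPM in bcat(ex3)osb mice, against 323 to 1002 CPM in WT mice, and Ly6a (Sca-1) at 65.9 to 81.5 CPM, against 148 to 162 CPM; CPM are counts scaled to a common library size, after TMM scaling. Nothing in the labels says that the mice came from separate litters or sorts, and p-values measure only the spread between these 6 libraries.

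Per length, Myc was the most abundant of the 10 transcripts in both genotypes. In FPKM, the deposited fragment counts scaled by gene length and library total, it averaged 420 in bcat(ex3)osb and 258 in WT mice, and Mycn came next with 80.1 in bcat(ex3)osb and 83.5 in WT mice, with no overlap of Myc and Mycn within a genotype. In bcat(ex3)osb mice Mlx (22.9), Max (22.3) and Mxd4 (21.6) followed with overlapping ranges, then Mxi1 (14.8), Mga (6.78), Mxd1 (6.33), Mycl (4.95) and Mnt (4.16). In WT mice the order was Mxd4 (24.98), Mlx (23.0), Mxi1 (15.9), Max (11.7), Mga (7.75), Mxd1 (6.88), Mnt (3.09) and Mycl (1.04). The neighbours Mxi1, Max, Mga and Mxd1 overlapped in WT mice, whereas Mnt lay above Mycl in all 3. Max thus ranked 4 of 10 in bcat(ex3)osb mice and 6 of 10 in WT mice, with its range overlapping that of the genes on either side in both.

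**Figure D1:**
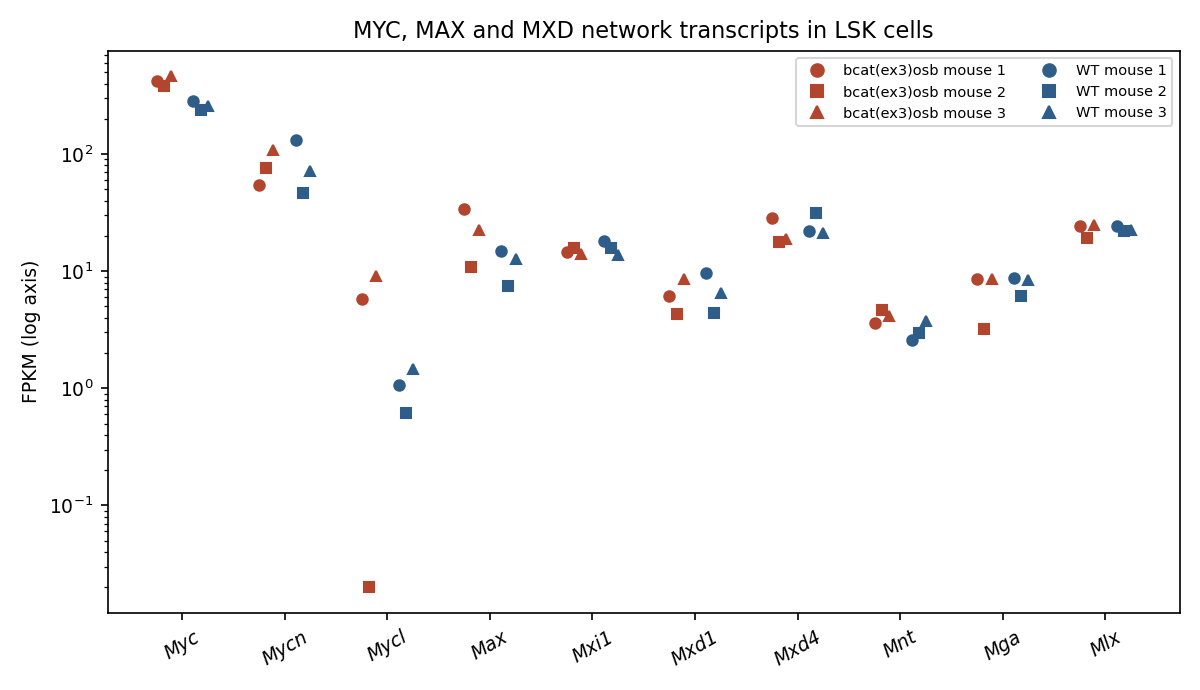
FPKM on a log axis for each of the 10 network genes, with 1 point per mouse, bcat(ex3)osb mice left of WT mice and a marker shape per mouse number. Myc lies above all other genes, at 379.94 to 461.29 in bcat(ex3)osb and 236.85 to 281.35 in WT mice, and Mycl spans the widest range, with bcat(ex3)osb mouse 2 at 0.02.

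No member passed the test over all genes, and the 2 with an unadjusted p under 0.05, Myc and Max, were both higher in the bcat(ex3)osb mice. By edgeR's quasi-likelihood test, 0 of 10 members had an adjusted p under 0.05, where the background was 0% higher and 0% lower of 12653 genes. DESeq2 called 1 member, Myc, where it called 0.799% of 12638 genes higher and 0.538% lower, and limma-voom called 0 members and 0% of all genes in either direction. At an unadjusted p under 0.05 the background was 3.43% higher and 3.13% lower. Of the 10 log2 fold changes 6 were positive and 4 negative, with a median of 0.05, beside 0.00 over all genes tested. Without overlap between the genotypes, 2 members were higher in bcat(ex3)osb mice, Myc and Mnt, and 0 were lower, where 6.89% of all genes were higher and 7.67% lower without overlap. In bulk RNA, fewer cells of a type and less RNA per cell cannot be told apart.

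**Figure D2:**
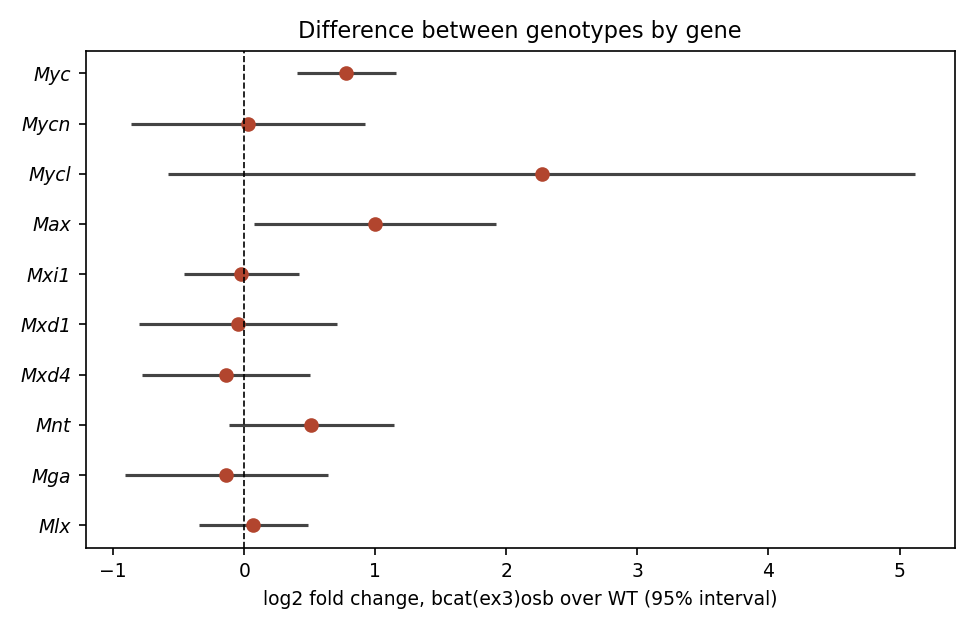
Log2 fold change of each network gene, bcat(ex3)osb over WT, on the x axis, with its 95% interval as a line. The intervals of Myc (0.40 to 1.16) and Max (0.08 to 1.92) lie above 0 without adjustment for the number of genes, and the interval of Mycl reaches from -0.58 to 5.12.

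Myc (gene ID 17869, chromosome 15, 61985341 to 61990361, GRCm38.p6) encodes the MYC protein itself and showed the smallest spread relative to its difference. In CPM it was at 1012, 1011 and 1080 in bcat(ex3)osb mice 1, 2 and 3, and at 639, 570 and 598 in WT mice 1, 2 and 3. The 3 bcat(ex3)osb values lay close together and well above the 3 WT values. The coefficient of variation was 3.81% in bcat(ex3)osb and 5.77% in WT mice, and the fold was 1.72. Its log2 fold change of 0.78 ± 0.17 (SE) had an unadjusted p of 0.00149, the 55th smallest of 12653, and an edgeR adjusted p of 0.333. With DESeq2 the adjusted p was 0.000202. In the 20 other alternatives the value was between 0.70 and 0.84 without passing the threshold, and it was 0.80 without bcat(ex3)osb mouse 2, the library that stood apart.

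Markers of granulocyte-monocyte progenitors were also higher in the bcat(ex3)osb mice, and their part in the difference of Myc was not tested. Of 12 such markers, 12 were tested and 12 had a positive log2 fold change, and all 12 had counts in both groups. Without overlap 11 of them were higher, where 6.89% of all genes were higher and 7.67% lower. Their summed level was between 6783 and 11870 CPM in bcat(ex3)osb mice and between 1493 and 3478 CPM in WT mice. Mast cell and basophil markers had 8 positive values of 8 tested, 3 of them without overlap. Their sums were 118.5 to 350.1 CPM in bcat(ex3)osb mice, against 22.6 to 73.9 CPM in WT mice. B cell markers had 9 negative values of 9 tested, 3 of them without overlap. Their sums were 602, 96.7 and 71.0 CPM in bcat(ex3)osb mice 1, 2 and 3, against 573, 955 and 1039 CPM in WT mice 1, 2 and 3. The sum of bcat(ex3)osb mouse 1 thus lay inside the WT range. Macrophage markers had 8 negative values of 8 tested, 6 of them without overlap. Their sums were 15.03 to 62.7 CPM in bcat(ex3)osb mice, against 71.3 to 102 CPM in WT mice. Megakaryocyte and erythroid markers had 5 positive values of 6 tested, 1 of them without overlap. Their sums were 63.96 to 178.3 CPM in bcat(ex3)osb mice, against 51.2 to 58.4 CPM in WT mice. Itga2b made up most of each bcat(ex3)osb sum, and the other tested genes of this list overlapped between the genotypes. Itga2b, the integrin gene of the megakaryocyte lineage, was at 45.7, 125.9 and 97.2 CPM in bcat(ex3)osb mice 1, 2 and 3, against 25.2, 20.7 and 33.7 CPM in WT mice 1, 2 and 3 (log2 fold change 1.75 ± 0.38, edgeR adjusted p = 0.333), while the haemoglobin gene Hba-a1 was at 0 in every library. Osteoblast markers had 1 positive value of 3 tested, that of Runx2, with overlapping sums of 91.4 to 148.2 CPM in bcat(ex3)osb mice, against 96.2 to 116.8 CPM in WT mice. Most of each sum was Runx2, at 88.4 to 147.3 CPM in bcat(ex3)osb mice and 74.8 to 108.4 CPM in WT mice. The other 2 were lower in bcat(ex3)osb mice without overlap. Alpl was at 0.387 to 4.79 CPM, against 5.92 to 21.8 CPM in WT mice, and Col1a2 at 0.129 to 1.99 against 2.02 to 2.57 CPM. The part of these markers in the difference of Myc was not tested either. Immediate early genes, which respond to stimuli and to cell handling, as Myc also can, had 9 positive values of 9 tested, 4 of them without overlap. Their sums were 598 to 1219 CPM in bcat(ex3)osb and 329 to 397 CPM in WT mice. Proliferation genes such as Mki67 and Top2a had 5 positive and 10 negative values of 15 tested, a median of -0.09 and no member without overlap. For both lists, too, the part in the difference of Myc was not tested.

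Several further genes followed Myc most closely over the 6 libraries. The highest Pearson correlations of log2 CPM with Myc among 7735 named autosomal genes with a mean of at least 20 CPM were those of Trmt44 (0.988), Smad1 (0.982), Mgat2 (0.980), Atxn7l1 (0.980) and Rab5a (0.978). Trmt44, a tRNA methyltransferase gene, was at 29.5 to 31.9 CPM in bcat(ex3)osb mice and at 16.3 to 19.4 CPM in WT mice. Smad1, a signal transducer of bone morphogenetic proteins, was at 123 to 132 CPM in bcat(ex3)osb and 94.6 to 106 CPM in WT mice. With 3 mice per genotype, any gene that separates the genotypes evenly scores highly here, and the values describe these 6 libraries alone.

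Mycn, the family member known from the nervous system that also acts in blood stem cells (chromosome 12, 12936093 to 12941836), varied within both genotypes. It was at 143, 219 and 277 CPM in bcat(ex3)osb mice 1, 2 and 3, and at 327, 120.5 and 179.7 CPM in WT mice 1, 2 and 3. The highest and the lowest library were both WT, so the bcat(ex3)osb values lay inside the WT range. A log2 fold change of 0.03 ± 0.39, with a 95% interval from -0.86 to 0.92, leaves room for a change in either direction. The FPKM ratio of Mycn to Myc was 0.131, 0.200 and 0.237 in bcat(ex3)osb mice 1, 2 and 3, against 0.472, 0.195 and 0.278 in WT mice 1, 2 and 3.

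Mycl encodes L-MYC, the family member known from dendritic cells and their progenitors (chromosome 4, 122995588 to 123002490). It had 379, 1 and 555 counts in bcat(ex3)osb mice 1, 2 and 3, and 73, 33 and 101 counts in WT mice 1, 2 and 3. In CPM this was 20.4, 0.0645 and 30.8 in bcat(ex3)osb mice, against 3.54, 2.15 and 4.91 in WT mice. In bcat(ex3)osb mice 1 and 3 Mycl thus lay above every WT mouse, and in bcat(ex3)osb mouse 2 below every one. The 95% counting interval of the single count in bcat(ex3)osb mouse 2 reached up to 0.359 CPM, under the lower bound of 1.48 CPM in WT mouse 2. Fitted over all 6 libraries, the log2 fold change of 2.27 ± 1.24 had an edgeR adjusted p of 0.813. It was 2.85 without bcat(ex3)osb mouse 2 (unadjusted p = 0.000145, edgeR adjusted p = 0.327) and 1.53 without bcat(ex3)osb mouse 3 (edgeR adjusted p = 0.813). It also varied with the method, at 0.39 by limma-voom, 0.36 with the length trend removed, 1.30 with the mouse number as a block, 1.03 on log2(FPKM + 1), 0.78 on log2(FPKM + 0.1) and 3.11 with sex as a covariate.

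Genes of classical dendritic cells varied in the same order as Mycl between the bcat(ex3)osb mice but not between the WT mice, and their part in its values was not tested. This list of 9 genes was chosen after the values were seen. Xcr1, a chemokine receptor of cross-presenting dendritic cells, was at 5.11, 0.452 and 20.2 CPM in bcat(ex3)osb mice 1, 2 and 3, against 1.6, 3.58 and 1.46 CPM in WT mice 1, 2 and 3. Zbtb46, a transcription factor of this lineage, was at 1.99, 0 and 8.37 CPM in bcat(ex3)osb mice and at 1.75, 0.390 and 1.31 CPM in WT mice. Cd74, the invariant chain of MHC class II, was at 300.3, 66.2 and 1436 CPM in bcat(ex3)osb mice 1, 2 and 3, against 127, 232.5 and 130.5 CPM in WT mice 1, 2 and 3. In all 9 genes bcat(ex3)osb mouse 3 was the highest and bcat(ex3)osb mouse 2 the lowest of the bcat(ex3)osb mice. The summed level of the list was 621, 140.5 and 2740 CPM in bcat(ex3)osb mice 1, 2 and 3, against 241, 478 and 249.8 CPM in WT mice 1, 2 and 3. Most of each sum was the MHC class II genes Cd74, H2-Aa and H2-Ab1. WT mouse 2, with the lowest Mycl of the WT mice, thus had the highest sum, and it was the highest of them in Xcr1, Clec9a, Batf3, Cd74, H2-Aa and H2-Ab1. Zbtb46, Batf3 and Cd209a had no count in bcat(ex3)osb mouse 2, and Cd209a had none in WT mouse 2. All 8 tested genes had a positive log2 fold change, beside 6363 of all 12653 genes. By edgeR 0 had an adjusted p under 0.05, and 1, Itgax, was higher at an unadjusted p under 0.05 (background 3.43%). Itgax was also the 1 gene higher without overlap (background 6.89%), and the sums overlapped between the genotypes.

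**Figure D3:**
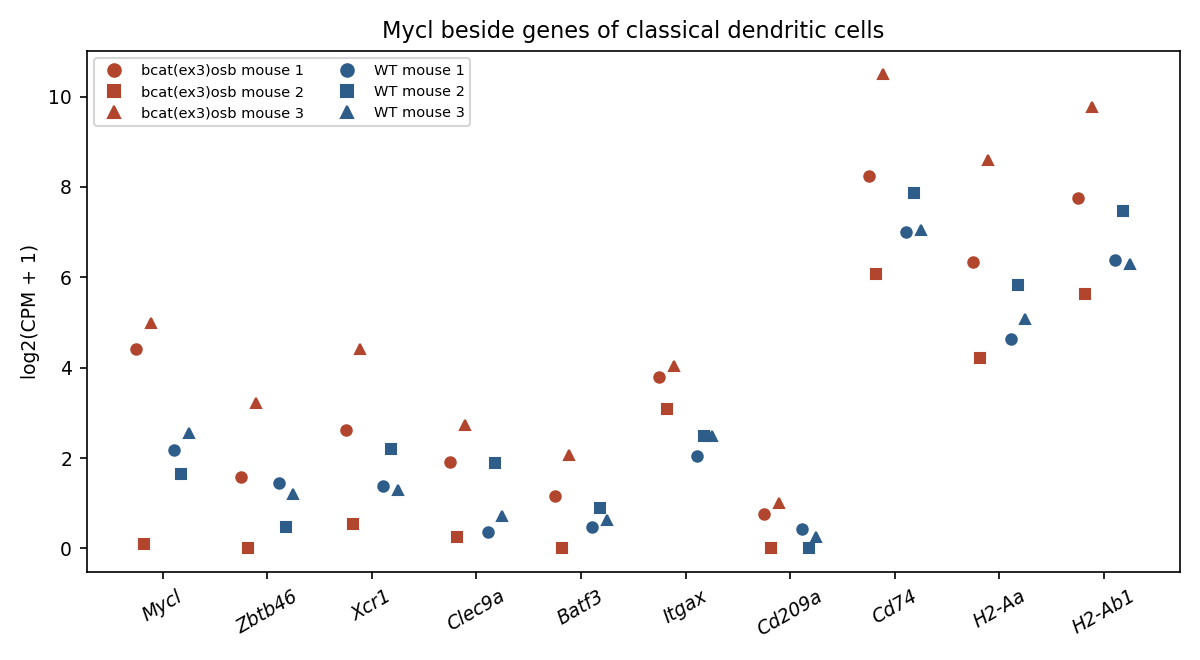
Log2(CPM + 1) of Mycl and 9 genes of classical dendritic cells, with 1 point per mouse, bcat(ex3)osb mice left of WT mice. The point of bcat(ex3)osb mouse 3 (triangle) is the highest and that of bcat(ex3)osb mouse 2 (square) the lowest of the 3 bcat(ex3)osb mice in each gene.

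Max, the obligate partner of MYC and of its antagonists (gene ID 17187, chromosome 12, 76937269 to 76962323), was higher on average in the bcat(ex3)osb mice, with a wide spread. It was at 67.8, 24.3 and 43.8 CPM in bcat(ex3)osb mice 1, 2 and 3, and at 28.2, 14.96 and 24.8 CPM in WT mice 1, 2 and 3. The values of bcat(ex3)osb mice 1 and 3 lay above all WT mice, while that of bcat(ex3)osb mouse 2 lay within the WT range. In both genotypes mouse 2 had the lowest value. This gave a log2 fold change of 1.00 ± 0.40, with an unadjusted p of 0.0370 and an edgeR adjusted p of 0.724. Without bcat(ex3)osb mouse 1 it was 0.58, and without bcat(ex3)osb mouse 2 it was 1.30 (edgeR adjusted p = 0.728 and 0.425). Its unadjusted p by edgeR was 0.164 without bcat(ex3)osb mouse 1 and 0.0651 without bcat(ex3)osb mouse 3. It was 0.113 without WT mouse 2 and 0.0663 without WT mouse 3. Each of these fits also had 1 mouse fewer, which by itself can raise p. The log2 fold change was 1.02 without bcat(ex3)osb mouse 3, 0.78 without WT mouse 2 and 1.07 without WT mouse 3. With both mice numbered 2 left out it was 1.07, and with a trend on gene length removed 0.90, so it had the same sign in these settings.

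**Figure D4:**
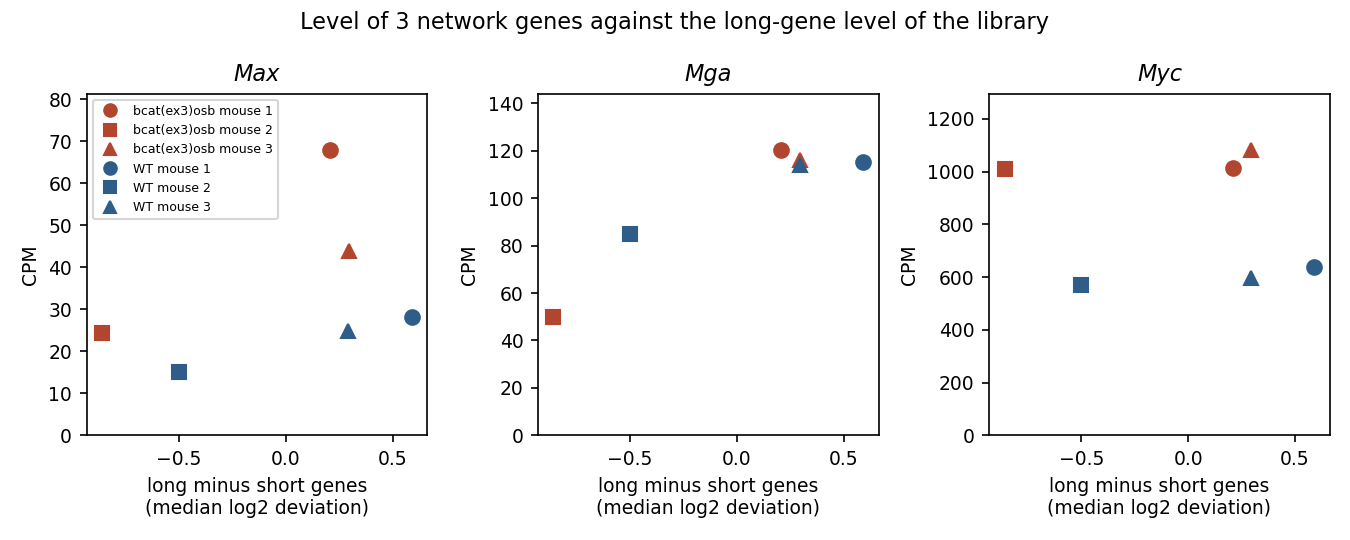
CPM of Max, Mga and Myc by library against the median log2 deviation of long minus short genes, with 1 point per mouse. The libraries of bcat(ex3)osb mouse 2 and WT mouse 2 (squares, at -0.86 and -0.50) have the lowest Max and Mga of their genotype, while Myc separates the genotypes across the whole range.

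The MXD genes did not differ detectably between the genotypes. Their products tether the SIN3 repressor complex to E-boxes and are known to increase as cells leave the cycle. Mxi1 (chromosome 19, 53310128 to 53373293), the gene of MXD2, was at 82.4, 97.6 and 77.0 CPM in bcat(ex3)osb mice 1, 2 and 3, and at 96.5, 89.2 and 75.6 CPM in WT mice 1, 2 and 3. The groups overlapped almost fully, and the log2 fold change of -0.02 ± 0.19 had a 95% interval from -0.46 to 0.42. Mxd1, which is known to rise in granulocyte differentiation (chromosome 6, 86647044 to 86669234), was at 28.5, 22.3 and 39.0 CPM in bcat(ex3)osb mice, against 42.7, 20.7 and 29.5 CPM in WT mice. Within each genotype mouse 2 was again the lowest, and the log2 fold change was -0.05 ± 0.33. Mxd4 (chromosome 5, 34176580 to 34187710) was at 33.4, 23.1 and 21.7 CPM in bcat(ex3)osb mice and at 24.6, 37.3 and 24.5 CPM in WT mice. Its value of -0.14 ± 0.28 had an interval from -0.78 to 0.50, and the highest library of each genotype was a different mouse number.

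Mnt and Mga, the larger MAX-binding repressors, had small and uncertain differences. Mnt, which is widely expressed and restrains MYC in dividing cells (chromosome 11, 74830806 to 74845725), was at 16.7, 23.7 and 18.7 CPM in bcat(ex3)osb mice 1, 2 and 3, and at 11.1, 13.7 and 16.6 CPM in WT mice 1, 2 and 3. The bcat(ex3)osb mice were all above the WT mice in CPM, but by a narrow margin, 16.69 against 16.64 between the closest libraries, and on the FPKM scale bcat(ex3)osb mouse 1 (3.62) lay below WT mouse 3 (3.74). For Mnt the log2 fold change was 0.51 ± 0.27, with an edgeR adjusted p of 0.809. Without bcat(ex3)osb mouse 2 it was 0.36. Mga, which joins a T-box to the helix-loop-helix domain and anchors a Polycomb complex (chromosome 2, 119872503 to 119970129), was at 120.1, 49.7 and 116 CPM in bcat(ex3)osb mice, against 115, 85.0 and 114 CPM in WT mice. Values in bcat(ex3)osb mouse 2 and WT mouse 2 were low and the other 4 libraries lay within 114 to 120.1 CPM. Its deposited gene length, 13931 bases, was the greatest of the 10. With the length trend removed both mice numbered 2 were still the lowest of their genotype, at 108.8, 68.6 and 100.1 CPM in bcat(ex3)osb mice 1, 2 and 3, against 112.3, 81.97 and 105 CPM in WT mice 1, 2 and 3. For Mga the log2 fold change was -0.14 ± 0.34, and 0.03 with both mice numbered 2 left out.

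Mlx (chromosome 11, 101086707 to 101092207) varied least of the 10 genes over the 6 libraries. It was at 48.7, 42.3 and 48.1 CPM in bcat(ex3)osb mice 1, 2 and 3, and at 45.8, 43.6 and 43.3 CPM in WT mice 1, 2 and 3, with a ratio of 1.151 between the highest and lowest of the 6 libraries. Its log2 fold change was 0.07 ± 0.18, with a 95% interval from -0.35 to 0.48. In GENCODE M21, 19.3% of the exonic bases of Mlx are shared with the antisense gene Psmc3ip, 6.06% of those of Mxd4 with Gm42846 and 2.84% of those of Mxi1 with Gm10197. The strand setting of the counting is not given, so reads of these pairs may not be separated.

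Set together, transcripts of Myc, Mycn and Mycl outweighed those of Mxi1, Mxd1, Mxd4 and Mnt in every library, and by more in the bcat(ex3)osb mice. The summed FPKM of Myc, Mycn and Mycl was 480.1, 456 and 579.6 in bcat(ex3)osb mice 1, 2 and 3, against 415, 284 and 329.6 in WT mice 1, 2 and 3. The summed FPKM of Mxi1, Mxd1, Mxd4 and Mnt was 52.5, 42.3 and 45.7 in bcat(ex3)osb mice, against 52.4, 54.7 and 45.5 in WT mice. The ratio of these sums was 9.15, 10.8 and 12.7 in bcat(ex3)osb mice and 7.92, 5.19 and 7.24 in WT mice, without overlap. Most of the family sum was Myc, 79.6% to 87.4% in bcat(ex3)osb mice and 67.8% to 83.5% in WT mice. Relative to Max the family sum was 14.3, 41.8 and 25.9 in bcat(ex3)osb mice, against 28.0, 38.2 and 25.9 in WT mice, which overlapped. These are sums of transcripts, described without a test, and say nothing of protein amounts.

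**Figure D5:**
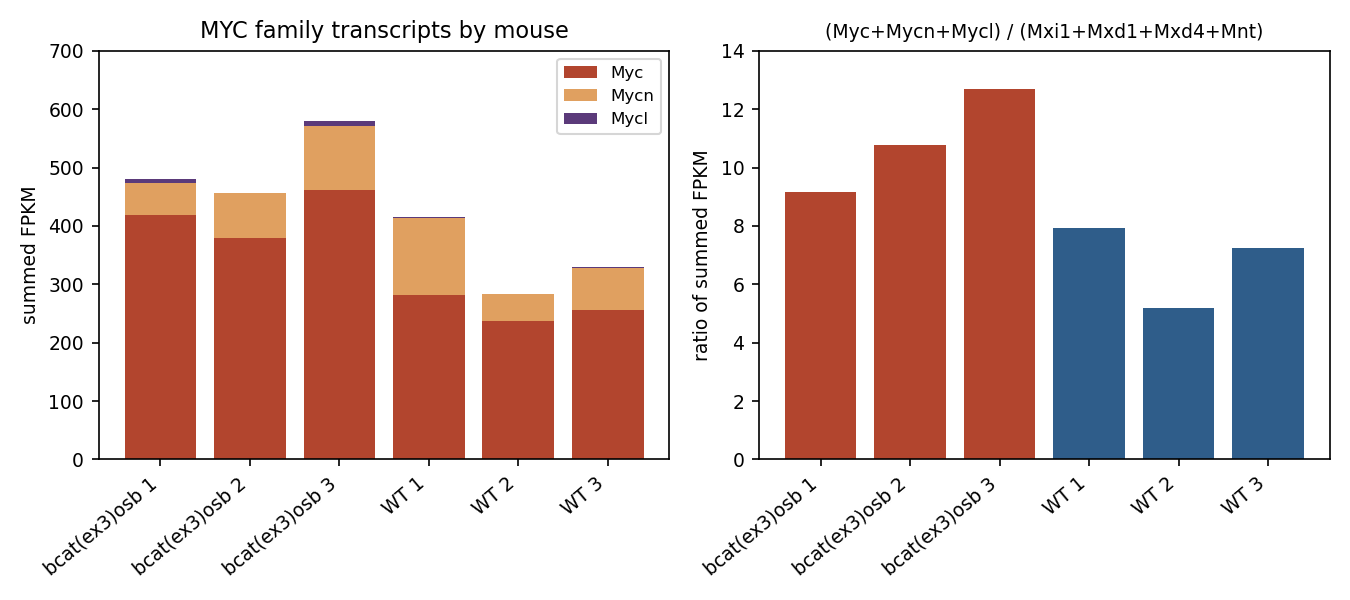
Left, stacked FPKM of Myc, Mycn and Mycl in each mouse; right, the ratio of their sum to that of Mxi1, Mxd1, Mxd4 and Mnt, with bcat(ex3)osb mice left of WT mice in both panels. The ratio is 9.15 to 12.7 in bcat(ex3)osb mice and 5.19 to 7.92 in WT mice.

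Of 4 further genes of the wider network, 3 were tested, and 0 had an edgeR adjusted or unadjusted p under 0.05. Mlxip, the gene of MondoA, which pairs with MLX, was at 136 to 173 CPM in bcat(ex3)osb mice and at 109 to 129 CPM in WT mice, without overlap, with a log2 fold change of 0.41 ± 0.18 (edgeR adjusted p = 0.774). Mxd3, an MXD gene tied to the S phase, was at 15.6 to 31.2 CPM in bcat(ex3)osb mice and at 22.2 to 47.8 CPM in WT mice. Bmyc averaged 144.1 FPKM in bcat(ex3)osb and 135.4 FPKM in WT mice, above the averages of Mycn (80.1 and 83.5). It overlapped between the genotypes, with a log2 fold change of 0.17 ± 0.28. Mlxipl, the gene of ChREBP, was under 1 CPM in every library. The MLX and MondoA target genes Txnip and Arrdc4 had positive values of 0.25 ± 0.19 and 0.61 ± 0.31 and overlapped between the genotypes.

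Cofactors of the network were mostly within the spread of the mice. Of 12 genes of MYC co-activators 10 had a positive log2 fold change, the median was 0.09, and 3 were higher without overlap, where the background was 6.89% higher and 7.67% lower. Among them were Wdr5, a subunit of histone H3 methyltransferase complexes, and Cdk9, the kinase that releases paused RNA polymerase, with an edgeR adjusted p of 0.808 and 0.877. Of 12 genes of the SIN3 and related co-repressors 3 had a positive and 9 a negative value, with a median of -0.12, and 3 of the 12 (the histone deacetylase genes Hdac1 and Hdac2, at -0.15 each, and the histone-binding gene Rbbp7, at -0.09) were lower without overlap. The PRC1.6 genes that work with MGA had 7 positive values of 10 and a median of 0.13, and 2 were higher without overlap. Genes that control the turnover of MYC protein, among them the ubiquitin ligase genes Fbxw7 and Skp2, were split into 7 positive and 7 negative with a median of 0.02, and 1 was higher without overlap. In each of these lists 0 members had an edgeR adjusted p under 0.05 and 0 an unadjusted p under 0.05.

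Genes that MYC is known to induce had mostly small positive differences. Of 30 such genes, all tested, 27 had a positive log2 fold change, beside 6363 of all 12653 genes, and the median was 0.18, beside 0.00 over all genes. By edgeR 0 had an adjusted p under 0.05 and 3 were higher at an unadjusted p under 0.05 (background 3.43%), and 6 were higher without overlap (background 6.89%). Rrs1, a ribosome assembly factor, was at 114, 123 and 114 CPM in bcat(ex3)osb mice 1, 2 and 3, and at 80.8, 82.0 and 86.5 CPM in WT mice, a log2 fold change of 0.49 ± 0.17. Ldha, the lactate dehydrogenase gene with the E-boxes printed above, was at 1340, 2158 and 1468 CPM in bcat(ex3)osb mice and at 1004, 1196 and 1154 CPM in WT mice. The transferrin receptor gene Tfrc was at 52.1 to 111 CPM in bcat(ex3)osb and 37.3 to 57.5 CPM in WT mice, with bcat(ex3)osb mouse 2 inside the WT range. Ncl and Odc1, often used as MYC targets, had overlapping groups, Ncl at 1129 ± 39.6 CPM in bcat(ex3)osb mice against 1118 ± 238 CPM in WT mice, and Odc1 at 138 ± 23.9 against 145 ± 11.7 CPM (SD, n = 3 each). Relative to the WT mean, the list median was 0.12, 0.30 and 0.12 log2 units in bcat(ex3)osb mice 1, 2 and 3, against values between -0.08 and 0.03 in WT mice.

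Genes that MYC is known to repress were split in sign. Of 9 tested, 6 had positive and 3 negative log2 fold changes (median 0.19). Ndrg1, a stress-responsive gene that MYC represses in other cells, was at 44.8, 87.3 and 67.9 CPM in bcat(ex3)osb mice 1, 2 and 3, and at 38.6, 30.6 and 38.5 CPM in WT mice. This is 0.89 ± 0.27 on the log2 scale (edgeR adjusted p = 0.550). Cdkn1a, the p21 inhibitor of the cell cycle, was at 81.0, 85.8 and 24.5 CPM in bcat(ex3)osb mice and at 16.1, 46.6 and 39.5 CPM in WT mice, with bcat(ex3)osb mouse 3 inside the WT range. The list median was highest in bcat(ex3)osb mouse 2, at 0.70 log2 units over the WT mean, beside -0.09 and -0.08 in bcat(ex3)osb mice 1 and 3.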

How the data were processed

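The submitters' processing notes name the mm10 build and the tools STAR 2.5.2b, bcl2fastq 2.17 and featureCounts 1.5.0-p3. How strand and multi-mapping reads were handled, and with which annotation, was not found in the sources used here. For each library the authors deposited raw counts per gene symbol and FPKM, which equalled the count scaled by the deposited gene length and library total within 0.005. Libraries were made with a stranded total RNA kit, per the labels' protocols.

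Counts were tested with edgeR 4.0.16 (R 4.3.3). Low genes were removed with filterByExpr by genotype (minimum count of 10 and minimum total count of 15), and libraries were scaled by TMM. Genotype alone entered the quasi-likelihood model, tested with a two-sided F test and Benjamini-Hochberg adjustment over 12653 genes at 0.05. Log2 fold changes are bcat(ex3)osb over WT, with an SE derived from F. List medians per mouse used log2 CPM with a prior count of 1. The procedure was tested on simulated data. Alternatives were RLE and upper-quartile scaling, DESeq2 1.42.0, limma-voom (limma 3.58.1), other filters, limma on log2(FPKM + 1) or log2(FPKM + 0.1) (kept at 0.5 FPKM or more in 3 libraries), a robust fit, the mouse number as a block, removal of a gene length trend, sex as a covariate and leaving out each mouse. Leaving out both mice numbered 2 was added after the data were seen.

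The members and gene lists were chosen with earlier results of these data known. All 10 members are named. From the lists, genes were named from the 4 smallest unadjusted p per list. Mki67, Fbxw7, Ncl, Odc1, Mlxipl, Xcr1, Zbtb46, Cd74, Batf3, Cd209a, Itgax and Clec9a were named after their values were seen. So were H2-Aa, H2-Ab1, Hba-a1, Hdac1, Hdac2, Rbbp7, Nme1, Eif4e, Eif4a1, Hspd1, Cdk4 and Apex1. Intervals on counts cover counting error only. Gene coordinates and promoter sequences are from RefSeq on GRCm38.p6, the assembly that mm10 names, and overlaps from GENCODE M21.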

Additional observations from a re-analysis of the deposited data

How the results depend on the processing

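Myc kept a positive value in all 21 alternatives and passed the threshold in 1, DESeq2 (0.79; the other 20 gave adjusted p from 0.0862 to 1.00); Max, Mnt and Mycl were positive in all 21 and passed in none. DESeq2 called 101 genes higher and 68 lower over all genes, and 1 member. With the replicate block 5 genes were higher, with the length trend removed 1 gene, and with both 4 genes; Myc was 0.78 in the block fit. Without 1 mouse in turn, between 0 and 4 genes were higher and between 0 and 13 lower: 1 and 13 without bcat(ex3)osb mouse 1, 4 and 2 without bcat(ex3)osb mouse 3, and 0 without any other. Myc then ran from 0.74 to 0.82. The deviations of same-numbered mice correlated at 0.11, 0.34 and 0.06, and those of differently numbered mice at -0.29 to 0.28. The highest of the latter was that of bcat(ex3)osb mouse 3 with WT mouse 1 (0.28). With 3 mice per genotype these values cannot settle whether the mouse numbers pair the samples. Members near 0 changed sign, with the cause not tested: Mycn was -3.2e-05 with upper-quartile scaling, -0.28 without both mice numbered 2, and from -0.25 to 0.50 without 1 mouse. Mlx was -0.013 on log2(FPKM + 1), with or without a filter, and -0.014 on log2(FPKM + 0.1). Mxi1 and Mxd1 were 0.082 and 0.059 with the length trend removed, also with the replicate block, and from -0.13 to 0.055 and from -0.29 to 0.25 without 1 mouse. With sex as a covariate Mxd1 was 0.33 and Mga 0.15; this fit rests on bcat(ex3)osb mouse 3. Mxd4 was 0.16 and Mga 0.033 without both mice numbered 2, and they ran from -0.36 to 0.086 and from -0.34 to 0.17 without 1 mouse. With 3 mice per genotype, the intervals given show which differences these libraries leave room for, and no limit of detection was computed.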
